A study of Mus musculus with 32 samples.

Results

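The 7 genes *Otx2*, *Pou3f1*, *Foxd3*, *Zic2*, *Zic5*, *Grhl2* and *Lin28b* were followed in mES cells driven towards primitive endoderm (PrE) by GATA6. They were taken by symbol, as genes known to mark formative pluripotency, from the 54233 rows of the expression table, and all 7 were among the 15227 genes with enough reads to be tested. Bulk RNA-seq was measured in 32 samples of unsorted KH2 mES cells, with 4 replicates at each of 0, 2, 4, 8, 16, 24, 48 and 96 h. Every sample carried a doxycycline (Dox)-inducible GATA6 transgene, which shares its promoter element (TRE) with the DsRed2 reporter. At 0 h the cells were in 2i medium, with inhibitors of MEK (PD0325901) and GSK3 (the CHIR compound) and LIF, and had received no Dox. The cells of the later time points were moved to serum medium with LIF and 1 µg/ml Dox, and after 12 h Dox was taken away for the samples of 16 h and later. The change of medium and the addition of Dox cannot be told apart in any comparison with 0 h, and no samples in serum medium without Dox were analysed here. Comparisons with 2 h lie within the serum medium. The line is 1 engineered mES cell line, so the p-values measure the spread between these samples. The labels do not say whether the 4 replicates were separate cultures, while the paper states that replicate experiments were done independently.

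Formative pluripotency is the state of the epiblast (Epi) just after implantation, between the naive state of the blastocyst, which mES cells in 2i medium resemble, and the primed state that precedes gastrulation. Cells that leave the naive state in culture lower naive regulators and raise a set of factors that move the pluripotency proteins to other enhancers. OTX2 (a homeodomain protein) and POU3F1 (OCT6) are early regulators of that step. FOXD3 is a forkhead protein of pluripotent cells and of the neural crest, and ZIC2 and ZIC5 are zinc finger proteins whose genes lie side by side. GRHL2 opens enhancers of epithelial genes in formative cells, and LIN28B is an RNA-binding protein that blocks the maturation of let-7 microRNAs. Several of these genes also have a role outside the epiblast, *Otx2* in the visceral endoderm among them.

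The 7 genes lie on 4 chromosomes in GENCODE M21 on GRCm38. *Otx2* lies at chr14:48657677-48673819 on the minus strand, *Pou3f1* at chr4:124656807-124660655 on the plus strand and *Foxd3* at chr4:99656299-99658622 on the plus strand. *Zic2* occupies chr14:122475435-122479852 on the plus strand, whereas its neighbour *Zic5* occupies chr14:122456795-122465677 on the minus strand. The start sites of *Zic2* and *Zic5* are 9758 bases apart and point away from each other. *Grhl2* spans chr15:37233036-37363569 on the plus strand, and *Lin28b* spans chr10:45376620-45486395 on the minus strand.

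The 250 bases before the start site are shown for the 3 members with a single promoter entry, since each of them fell during the time course, at different times. They come from RefSeq on GRCm38.p6, read 5′ to 3′ on the strand of the gene, and capitals mark the GATA core GATAA or its reverse complement TTATC. The *Foxd3* window is chr4:99656049-99656298, the *Zic5* window is chr14:122465659-122465908, and the *Lin28b* window is chr10:45470202-45470451, inside the longer GENCODE span of that gene.
Foxd3: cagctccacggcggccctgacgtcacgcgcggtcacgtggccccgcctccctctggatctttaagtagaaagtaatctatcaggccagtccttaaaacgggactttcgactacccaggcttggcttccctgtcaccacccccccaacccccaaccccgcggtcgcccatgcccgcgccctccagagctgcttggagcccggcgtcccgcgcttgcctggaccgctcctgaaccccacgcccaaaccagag
Zic5: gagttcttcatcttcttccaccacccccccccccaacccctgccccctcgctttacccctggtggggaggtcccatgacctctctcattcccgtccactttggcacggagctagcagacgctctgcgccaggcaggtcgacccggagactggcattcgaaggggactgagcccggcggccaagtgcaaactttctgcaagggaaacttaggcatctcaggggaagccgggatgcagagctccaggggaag
Lin28b: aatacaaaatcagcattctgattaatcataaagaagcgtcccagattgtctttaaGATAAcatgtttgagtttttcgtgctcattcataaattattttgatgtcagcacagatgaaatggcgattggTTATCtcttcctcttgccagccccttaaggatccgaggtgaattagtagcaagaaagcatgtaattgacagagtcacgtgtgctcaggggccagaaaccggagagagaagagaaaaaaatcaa
The windows differed in composition, with a GC content of 65.6% at *Foxd3*, 62.4% at *Zic5* and 39.2% at *Lin28b*. The letters GATAA were found on either strand 2 times in the *Lin28b* window and 0 times in the windows of *Foxd3* and *Zic5*, whereas 22.6% of the 32851 promoters in the table held them at least 1 time. *Otx2* had 4 entries, with 1, 0, 2 and 1 matches. The OTX core TAATCC (6.25% of promoters) had 1 match, in the third *Otx2* entry, and neither the POU octamer ATGCAAAT (1.6%) nor the GRHL site AACCGGTT (0.116%) had a match in any of the 7 entries. A match is a run of letters, not a measured site. *Pou3f1*, *Zic2* and *Grhl2* had no entry.

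The samples held 3190108 to 12301732 reads on genes (median 8870662.5). The libraries followed their labels. *Gata6* rose from a mean normalized count of 0.371 at 0 h to 14.9 at 2 h, and 10 of 10 PrE markers were at least 4-fold higher than at 0 h at each time point from 8 h on, with *Cubn*, *Col4a1*, *Dab2* and *Gata6* changing most. Per the study's methods, reads of the *Gata6* coding region can come from the transgene as well as the endogenous gene. Of 12 naive pluripotency genes, 8 were lower and 2 higher at 2 h than at 0 h, beside 22.6% and 22.2% of all tested genes. At 96 h 10 were lower and 1 higher, beside 38.5% and 38.0%. *Esrrb*, *Prdm14*, *Nanog* and *Nr0b1* fell most, whereas *Klf5*, named after its values were seen, rose from a mean of 1497 at 0 h to 4630 at 2 h. Replicates 1 and 2 stood apart from replicates 3 and 4 across genes, so the values of these pairs are given beside results that differ between them. In bulk samples, fewer cells that express a gene and less RNA per cell cannot be told apart.

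The 7 genes did not move as a group. Levels are normalized counts (reads scaled by the size factors of the deposited data), and changes are log2 fold changes of (normalized count + 1) with their standard error (SE). *Foxd3*, *Zic2*, *Zic5* and *Lin28b* were lower at 96 h than at 0 h, each at its own pace, whereas *Otx2*, *Pou3f1* and *Grhl2* each rose for a short time and returned. *Otx2* peaked at 16 h, *Pou3f1* at 2 h and *Grhl2* at 4 h, and *Lin28b* was highest at 16 h.

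**Figure D1:**
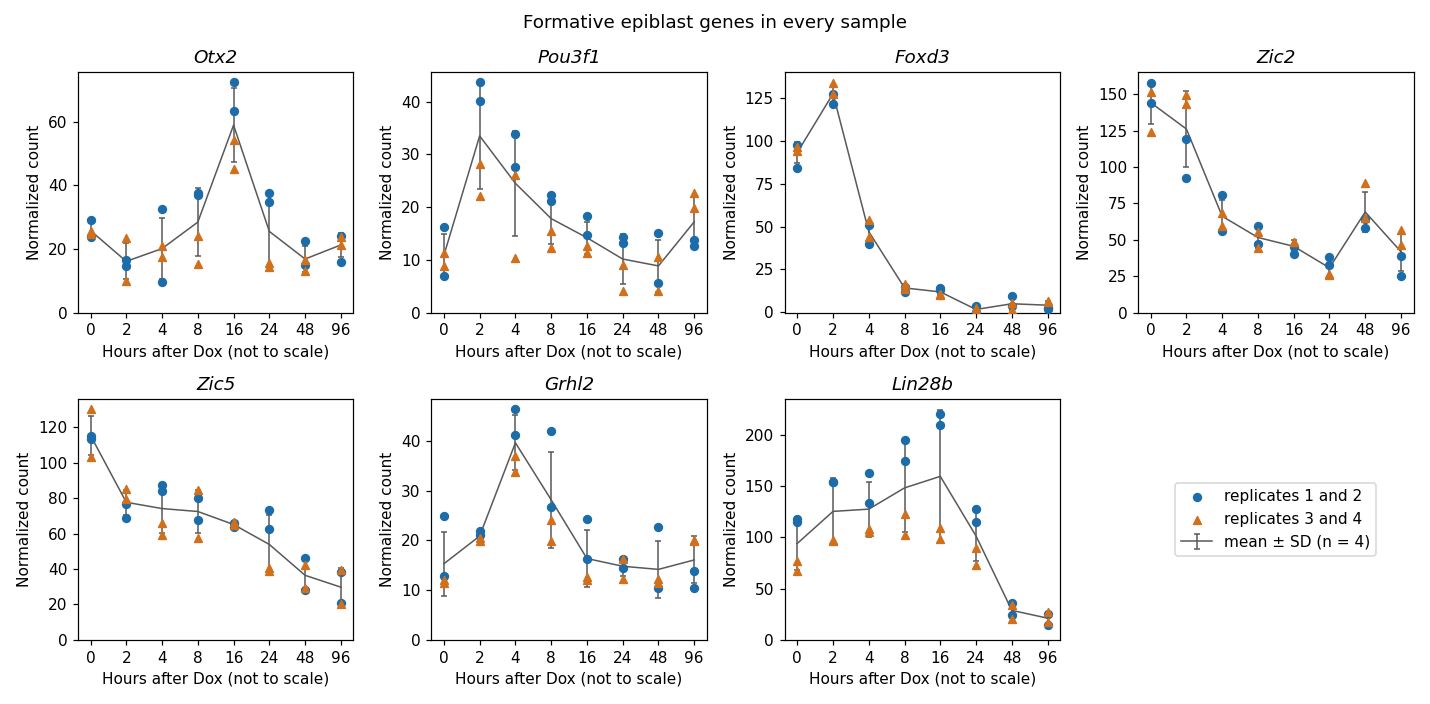
Normalized count (y axis) of each gene in all 32 samples against hours after Dox (x axis, equally spaced time points), with circles for replicates 1 and 2, triangles for replicates 3 and 4, and the line for the mean ± SD (n = 4). *Otx2* peaks at 16 h (mean 58.9), *Pou3f1* at 2 h (33.5) and *Grhl2* at 4 h (39.6), whereas *Foxd3* falls to 14.1 by 8 h and *Lin28b* from 101 at 24 h to 28.8 at 48 h.

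Levels per kb of exon put *Zic2* first and *Grhl2* last in uninduced cells. Mean normalized counts per kb at 0 h were 50.1 for *Zic2*, 40.1 for *Foxd3*, 23.6 for *Zic5*, 10.4 for *Lin28b*, 6.11 for *Otx2*, 2.82 for *Pou3f1* and 1.78 for *Grhl2*. At 16 h the order had turned, with *Lin28b* at 17.6, *Zic2* at 15.8, *Otx2* at 14.0 and *Zic5* at 13.3 per kb, ahead of *Foxd3* at 5.08. At 96 h *Zic2* led again with 14.5 per kb and *Foxd3* was last with 1.74. These are levels, and differences between genes were not tested. All 7 genes were of low abundance, with at most 258 reads in any sample.

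Each comparison was tested with limma across all 15227 genes, with Benjamini-Hochberg adjustment (FDR) over them. At FDR < 0.1, 1 of 7 members was higher and 2 were lower at 2 h than at 0 h, beside 22.2% and 22.6% of all tested genes. At 4 h the members split 2 higher and 3 lower (24.7% and 23.8% of all genes), at 8 h also 2 and 3 (26.3% and 22.8%), and at 16 h again 2 and 3 (28.0% and 25.3%). From 24 h on no member was higher by this test. The numbers lower were 3 at 24 h, beside 31.2% of all genes higher and 30.7% lower, 4 at 48 h (36.1% and 37.3%) and 4 at 96 h (38.0% and 38.5%). The median change of the 7 members was 0.11 at 16 h, −1.06 at 48 h and −1.81 at 96 h, whereas that of all tested genes was 0.01, −0.02 and −0.03.

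With the additional demand of a 4-fold change, 7 of 49 member and time point pairs were lower than at 0 h, against 3.78% of all gene and time point pairs. They belonged to 3 genes, *Foxd3* at 8, 16, 24, 48 and 96 h, *Zic2* at 24 h and *Lin28b* at 96 h. By limma, 0 pairs were at least 4-fold higher than at 0 h, against 4.96% of all pairs, as were 0 pairs by limma-voom. At an unadjusted p < 0.05 the count of 4-fold rises was also 0, and 7 pairs were higher without the demand on fold, the same number as at FDR < 0.1. The largest rise against 0 h was the 1.55 of *Pou3f1* at 2 h.

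**Figure D2:**
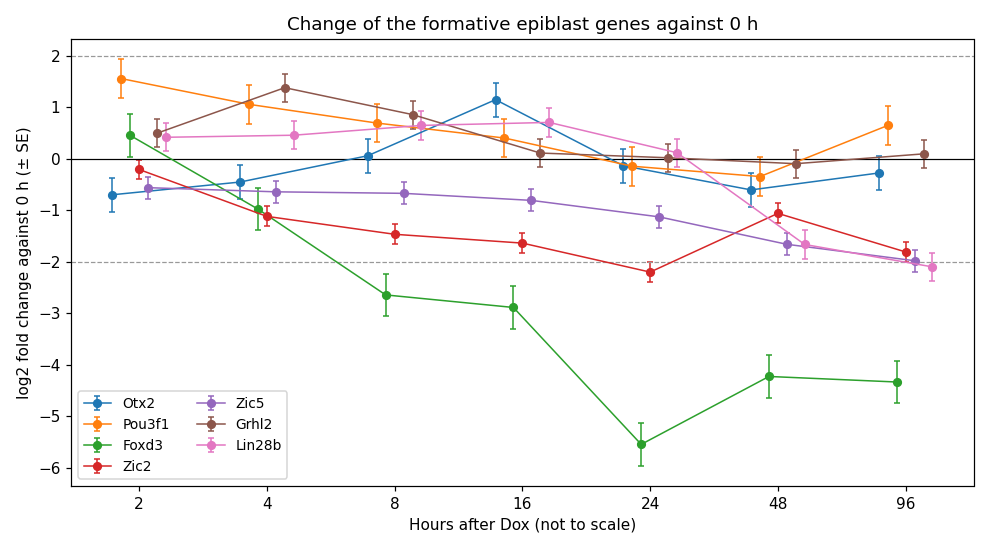
Log2 fold change against 0 h ± SE (y axis) of the 7 genes at each later time point (x axis, equally spaced; points are set side by side for legibility), with dashed lines at the 4-fold limits. *Foxd3* lies below −2 from 8 h on, and no gene reaches 2 above 0 h.

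Between neighbouring time points, 6 of 49 pairs were higher and 12 lower at FDR < 0.1, beside 17.9% and 17.4% of all pairs. With the 4-fold demand 0 were higher and 1 was lower, the fall of *Foxd3* between 16 and 24 h, beside 1.14% and 0.842%. Against 2 h, within the serum medium, 3 of 42 pairs were higher and 23 lower at FDR < 0.1, beside 28.2% and 27.6% of all pairs. Here 0 were at least 4-fold higher and 7 at least 4-fold lower, beside 4.69% and 4.61%. The largest rise against 2 h was 1.85, in *Otx2*. The counts of 4-fold rises stayed 0 at an unadjusted p < 0.05 and by limma-voom in both sets of comparisons, and without a demand on fold 6 and 3 pairs were higher at that p. When replicates were averaged within their sets, 15 of the member changes past FDR < 0.1 missed it. They were *Otx2* (2 h against 0 h, 16 h against 8 h, 8 h against 2 h), *Pou3f1* (4 h against 0 h, 96 h against 48 h, 8 h against 2 h), *Foxd3* (4 h against 0 h), *Zic2* (24 h against 16 h), *Zic5* (2 h against 0 h, 48 h against 24 h), *Grhl2* (4 h against 2 h, 16 h against 8 h, 48 h against 2 h) and *Lin28b* (8 h and 16 h against 0 h). Comparisons that share the samples of 0 h or 2 h are not independent of each other.

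*Otx2*, the homeodomain factor that helps to start the formative programme, was higher than at 0 h at 16 h alone. Its normalized counts were 29.0, 23.8, 25.8 and 24.6 at 0 h and 63.5, 72.5, 45.3 and 54.4 at 16 h, in replicates 1 to 4. All 4 samples of 16 h lay above those of 0 h. The log2 fold change was 1.14 ± 0.33 (SE, limma adjusted p = 0.0047). Against 2 h, where the counts were 14.5, 16.6, 23.4 and 9.85, the rise at 16 h was 1.85 ± 0.33 (limma adjusted p = 2.7e-05).

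*Otx2* then changed by −1.28 ± 0.33 between 16 and 24 h (limma adjusted p = 0.0046). Both of these times come after the removal of Dox at 12 h, and a link to that removal was not tested. The sets of replicates disagreed at 24 h, with 34.8 and 37.5 in replicates 1 and 2 and 14.2 and 15.5 in replicates 3 and 4. The change was −0.89 in the first pair and −1.68 in the second. The rise from 8 to 16 h, 1.09 ± 0.33 (limma adjusted p = 0.021), lost the threshold without replicate 4 of 8 h, at 0.83 (limma adjusted p = 0.11). The small decrease of *Otx2* from 0 to 2 h, −0.70 ± 0.33 (limma adjusted p = 0.092), was lost when any 1 of 7 of the 8 samples was left out, with limma adjusted p-values of 0.11 to 0.28. The rise of *Otx2* from 2 to 8 h, 0.76 ± 0.33 (limma adjusted p = 0.073), was lost without replicate 1 or 4 of 2 h or replicate 1 or 2 of 8 h (0.56 to 0.73, limma adjusted p from 0.13 to 0.23), and it was 1.21 in replicates 1 and 2 and 0.31 in replicates 3 and 4.

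OTX2 is also a factor of the anterior visceral endoderm, so markers of that tissue were set beside it. Of 9 listed genes, 8 were tested, and at 16 h 5 were higher and 2 lower than at 0 h, beside 28.0% and 25.3% of all genes. The summed count of the 9 was 329 to 438 at 0 h, 1422 to 1506 at 16 h, 1470 to 2421 at 24 h and 2408 to 3332 at 48 h. *Dkk1* alone had a mean of 916 at 16 h and 1400 at 24 h, so the sum follows that gene at those times. At 0 h most of the sum was *Eomes* (named after its values were seen), with 180 to 349. The median change of the 8 against 0 h was 1.67 at 16 h and 0.88 at 24 h. Between 16 and 24 h, when *Otx2* fell, *Lefty1* (named after its values were seen) also fell, from a mean of 46.0 to 10.6, whereas *Hesx1*, *Lhx1* and *Hhex* rose. Over the time course *Foxa2*, *Dkk1*, *Lhx1* and *Hesx1* changed most, whereas *Cer1*, a defining marker, had no read at 0 or 96 h and means of 6.58 at 16 h and 3.82 at 24 h. Their part in the change of *Otx2* was not tested.

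*Pou3f1*, which encodes the POU factor OCT6, was the one member higher at 2 h than at 0 h at FDR < 0.1. Its normalized counts went from 6.90, 16.3, 8.87 and 11.3 at 0 h to 43.6, 40, 28.1 and 22.2 at 2 h. The groups did not overlap, and the mean at 2 h was 309% of that at 0 h. The change was 1.55 ± 0.38 (limma adjusted p = 0.0014). At 4 h *Pou3f1* was 1.05 ± 0.38 above 0 h (limma adjusted p = 0.025), with counts of 27.7, 33.9, 10.4 and 26. Replicates 3 and 4 alone gave a smaller value there, 0.67 (limma adjusted p = 0.23), against 1.44 in replicates 1 and 2.

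Within the serum medium *Pou3f1* declined. Compared with 2 h, its change reached −1.70 ± 0.38 by 24 h (limma adjusted p = 3.0e-04) and −1.90 ± 0.38 by 48 h (limma adjusted p = 5.0e-05). The decline from 2 to 8 h, −0.86 ± 0.38 (limma adjusted p = 0.076), was lost without replicate 1 or 2 of 2 h or replicate 3 or 4 of 8 h (limma adjusted p from 0.14 to 0.20). Between 48 and 96 h *Pou3f1* rose by 0.99 ± 0.38 (limma adjusted p = 0.030), but not past the threshold without replicate 4 of 48 h (0.73, limma adjusted p = 0.13). That rise was 0.46 in replicates 1 and 2 and 1.53 in replicates 3 and 4. All *Pou3f1* values rest on 2 to 53 reads per sample.

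*Foxd3*, a repressor of differentiation in pluripotent cells, went up before it went down. Its normalized counts were 84.2, 97.8, 96.7 and 94.4 at 0 h and 128, 122, 128 and 134 at 2 h. All 4 samples of 2 h lay above all 4 of 0 h. The limma test over all 32 samples did not call this difference (0.45 ± 0.41, adjusted p = 0.42), whereas limma-voom on the reads did (adjusted p = 0.013), as did limma on these 8 samples alone (adjusted p = 0.0087). The spread of *Foxd3* on the log2 scale was far wider at the late time points, where it had few reads.

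At 4 h *Foxd3* had dropped to 39.5, 50.9, 44.1 and 53.7, and at 8 h to 14.9, 11.6, 16.3 and 13.7. Neither group overlapped with 0 h. The change against 0 h was −0.98 ± 0.41 at 4 h (limma adjusted p = 0.056) and −2.65 ± 0.41 at 8 h (limma adjusted p = 4.6e-06). The first of these lost the threshold without replicate 1 of 4 h (−0.90, limma adjusted p = 0.12). Within the serum medium the fall from 2 h was −1.43 ± 0.41 at 4 h (limma adjusted p = 0.013) and −3.10 ± 0.41 at 8 h (limma adjusted p = 5.5e-07).

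A second drop of *Foxd3* followed between 16 and 24 h. The counts went from 13, 13.8, 9.98 and 10.4 to 0, 3.75, 0 and 2.45, a change of −2.66 ± 0.41 (limma adjusted p = 1.8e-05). With a pseudocount of 5 it was −1.40, past the FDR but short of 4-fold. The mean at 24 h was 1.66% of that at 0 h and rested on 0 to 6 reads per sample. The fitted change at 24 h against 0 h, −5.55 ± 0.41 (limma adjusted p = 1.2e-12), therefore depends on the pseudocount, and was −3.95 with a pseudocount of 5 and −6.14 with 0.5. At 48 and 96 h the means were 4.88 ± 3.50 and 4.04 ± 2.24 (SD, n = 4). The rise from 24 to 48 h, 1.32 ± 0.41 (limma adjusted p = 0.0083), involved at most 6 reads in a sample, and the samples of the 2 times overlapped.

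*Foxd3* is also a gene of the neural crest. Of 8 crest markers, *Foxd3* included, 4 were tested, and apart from *Foxd3* the largest changes were in *Ets1* and *Tfap2a*. *Sox10* and *Tfap2b*, defining crest genes, had means of at most 3.77 and 0.800 at any time point. The summed count of the 7 other crest markers was 53.7 to 74.5 at 0 h and 1071 to 1186 at 96 h, and at 96 h *Ets1* alone had a mean of 1105.

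*Zic2* fell and then partly came back. The samples of 0 h had normalized counts of 157, 144, 124 and 151, those of 2 h had 92.5, 119, 143 and 149, and those of 4 h had 81.1, 55.7, 59.3 and 68.5. The samples of 2 h overlapped with those of 0 h, and those of 4 h lay below both. The log2 fold change of the samples of 4 h was −1.12 ± 0.19 against 0 h (limma adjusted p = 2.3e-05) and −0.91 ± 0.19 against 2 h (limma adjusted p = 0.0010).

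The lowest *Zic2* counts came at 24 h, with 32.4, 38.2, 26.4 and 26.1. The change from 0 h was −2.20 ± 0.19 (limma adjusted p = 4.6e-11). The last step of that fall, from 16 to 24 h (−0.56 ± 0.19, limma adjusted p = 0.035), was lost without replicate 4 of 24 h (−0.49, limma adjusted p = 0.10). At 48 h *Zic2* stood at 58.4, 64.1, 88.8 and 65.0. Every sample of 48 h lay above every sample of 24 h, and the rise was 1.14 ± 0.19 (limma adjusted p = 1.3e-05). Both replicate sets showed it, with 0.78 in replicates 1 and 2 and 1.5 in replicates 3 and 4. By 96 h *Zic2* had dropped again to 25.5, 38.9, 56.5 and 46.3, a change of −0.75 ± 0.19 from 48 h (limma adjusted p = 0.0019).

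*Zic5*, the divergent neighbour of *Zic2*, had a lower mean at each successive time point. Normalized counts of 113, 115, 103 and 130 before induction were followed by 76.9, 68.7, 79.7 and 85.4 in the samples of 2 h, and the samples of 96 h had 38.2, 21.0, 20.1 and 39.7. The samples of 2 h lay below those of 0 h, and those of 96 h below both. The change against 0 h was −0.56 ± 0.21 at 2 h (limma adjusted p = 0.037) and −1.98 ± 0.21 at 96 h (limma adjusted p = 1.3e-09). The first of these was lost with the sets averaged (limma adjusted p = 0.12).

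Between 2 and 16 h *Zic5* stayed nearly level, with means of 77.7, 74.1, 72.5 and 65.1. The decline from 24 to 48 h, −0.53 ± 0.21 (limma adjusted p = 0.038), was lost without replicate 1 or 2 of 24 h or without replicate 2 or 3 of 48 h (limma adjusted p from 0.12 to 0.17). It was −0.89 in replicates 1 and 2 and −0.18 in replicates 3 and 4. The comparison of 24 h with 2 h (−0.57 ± 0.21, limma adjusted p = 0.025) was lost without replicate 4 of 24 h (−0.43, limma adjusted p = 0.11), and it was −0.10 in replicates 1 and 2 and −1.03 in replicates 3 and 4.

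The ratio of *Zic2* to *Zic5* within a sample therefore changed in both directions. A two-sided exact permutation test of 4 samples against 4 was run on each ratio, and the smallest p it can give is 0.0286. The Benjamini-Hochberg adjustment over all 48 ratio tests turned this smallest p into 0.065, and the pairs of genes were chosen after their values had been seen. The mean log2 ratio was 0.32 ± 0.11 in uninduced cells and 0.67 ± 0.27 at 2 h, but −0.75 ± 0.20 by 24 h, before it reached 0.92 ± 0.56 by 48 h (SD, n = 4). It was below 0 h in all 4 samples at each of 4, 8, 16 and 24 h, with differences of −0.48, −0.79, −0.83 and −1.07, each at the smallest p. The rise from 24 to 48 h was 1.67 in replicates 1 and 2 and 1.68 in replicates 3 and 4, again at the smallest p. At 96 h the samples spread widely (0.49 ± 0.86) and overlapped with 0 h.

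**Figure D3:**
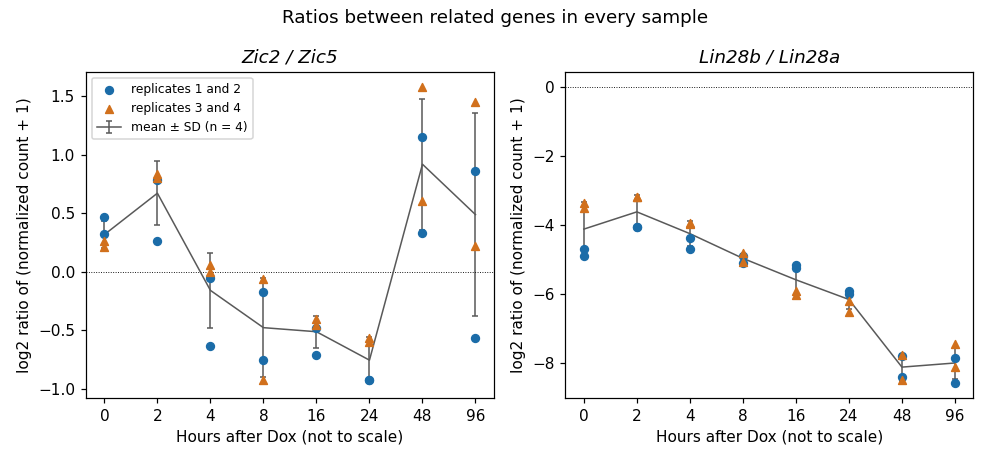
Log2 ratio of (normalized count + 1) between gene pairs (y axis) in every sample against hours after Dox (x axis, equally spaced), with circles for replicates 1 and 2, triangles for replicates 3 and 4 and the line for the mean ± SD (n = 4). The *Zic2* to *Zic5* ratio drops to −0.75 at 24 h and jumps to 0.92 at 48 h, and the *Lin28b* to *Lin28a* ratio falls from −4.13 at 0 h to −8.13 at 48 h.

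*Grhl2*, which opens epithelial enhancers when cells leave the naive state, had a short peak at 4 h. Uninduced samples had normalized counts of 24.8, 12.9, 12.1 and 11.3. The samples of 2 h had 21.8, 21.1, 19.9 and 20.5, and those of 4 h had 46.5, 41.2, 36.9 and 33.8. The samples of 4 h lay above all of 0 h and 2 h, whereas 1 sample of 0 h lay above those of 2 h. The change at 4 h was 1.38 ± 0.27 against 0 h (limma adjusted p = 1.4e-04) and 0.88 ± 0.27 against 2 h (limma adjusted p = 0.021). The latter was lost when the replicates were averaged within their sets (limma adjusted p = 0.21). At 8 h *Grhl2* was still 0.85 ± 0.27 above 0 h (limma adjusted p = 0.011), with counts of 26.7, 42, 24.1 and 19.8, which overlapped with 0 h.

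From 16 h on the means of *Grhl2* lay between 14.2 and 16.3, beside 15.3 at 0 h. The changes against 0 h were between −0.10 and 0.11 with limma adjusted p-values of 0.76 to 0.97. The step down from 8 to 16 h, −0.75 ± 0.27 (limma adjusted p = 0.061), was lost without replicate 1 or 2 of 8 h or replicate 3 or 4 of 16 h (limma adjusted p from 0.10 to 0.24). The comparison of 48 h with 2 h (−0.59 ± 0.27, limma adjusted p = 0.052) was lost without replicate 1, 3 or 4 of 48 h (limma adjusted p from 0.10 to 0.15). Without replicate 1 of 0 h, the high one, *Grhl2* was higher at 2 h than at 0 h (limma adjusted p = 0.034), which it was not with all samples (0.49 ± 0.27, limma adjusted p = 0.16).

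Of 14 epithelial genes known as GRHL targets, 13 were tested. At 2 h 6 of them were higher and 0 lower than at 0 h, beside 22.2% and 22.6% of all tested genes. At 4 h 8 were higher and 0 lower (24.7% and 23.8% of all genes). By 8 h 6 were higher, with 3 lower (26.3% and 22.8%), whereas the samples of 16 h had 8 higher, with 3 lower (28.0% and 25.3%). The median change of the 13 against 0 h was 0.48 (2 h), 0.84 (4 h), 0.95 (8 h) and 1.26 (16 h). The summed count of all 14 had a mean of 8733 in uninduced cells, 7026 by 16 h and 12513 by 96 h. At 96 h 9 were higher and 3 lower (38.0% and 38.5% of all genes). The largest changes were the rises of *Krt18* (mean 31.6 at 0 h, 717 at 4 h and 3434 at 96 h), *Krt8* (133, 881 and 5905), *Cldn6* and *Esrp1*. In the samples of 2 h *Krt18* already had 568 to 636 and *Krt8* 481 to 750. *Cdh1*, which encodes E-cadherin and was named after its values were seen, went from 4845 at 0 h to 4539 at 4 h and 897 at 96 h. Whether *Grhl2* had a part in the changes of these genes was not tested.

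The relative *Grhl3* changed more than *Grhl2*. Its mean went from 211 in uninduced cells to 362 at 2 h, then to 121 by 4 h and to 9.17 by 96 h, a change of −4.49 ± 0.29 from first to last (limma adjusted p = 1.3e-14). The log2 ratio of *Grhl2* to *Grhl3* rose from −3.75 at 0 h to 0.60 at 16 h, and all 4 samples of each time point from 4 h on lay above those of 0 h.

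*Lin28b* had means above that of 0 h up to 24 h, highest at 16 h, and a much lower mean at 48 h. Normalized counts were 115, 118, 66.9 and 77.4 in uninduced samples and 221, 210, 98.5 and 109 in the samples of 16 h. Those of 24 h had 127, 115, 89.4 and 73.4, and those of 48 h had 24.5, 35.8, 34.3 and 20.6. Replicates 1 and 2 were higher than replicates 3 and 4 at each time point from 0 to 24 h, and the samples of 48 h lay below all earlier ones. From 16 to 24 h *Lin28b* changed by −0.59 ± 0.28, which did not pass the threshold (limma adjusted p = 0.13). At 24 h it differed from 0 h by 0.11 ± 0.28 (limma adjusted p = 0.74), and the samples overlapped. The fall from 24 to 48 h was −1.78 ± 0.28 (limma adjusted p = 3.5e-06), with −1.99 in replicates 1 and 2 and −1.57 in replicates 3 and 4. By 96 h *Lin28b* differed from 0 h by −2.1 ± 0.28 (limma adjusted p = 6.3e-08).

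The earlier rise of *Lin28b* was smaller and less certain. Against 0 h it came to 0.64 ± 0.28 at 8 h (limma adjusted p = 0.060) and 0.70 ± 0.28 at 16 h (limma adjusted p = 0.037), and at both times the samples overlapped with those of 0 h. The value at 8 h lost the threshold without replicate 3 or 4 of 0 h or replicate 1 or 2 of 8 h (limma adjusted p from 0.14 to 0.19). That at 16 h lost it without replicate 3 of 0 h or replicate 1 or 2 of 16 h (limma adjusted p from 0.13 to 0.16). Within the sets the rise at 16 h was 0.89 in replicates 1 and 2 and 0.52 in replicates 3 and 4.

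LIN28A, the sister protein that also blocks let-7, is made from *Lin28a*, which stayed above its level of 0 h while *Lin28b* dropped. Its mean went from 2039 in uninduced cells to 7307 at 16 h and 7193 at 24 h, then to 8132 by 48 h and to 5557 by 96 h, and neither of the last 2 steps passed the test (0.18 and −0.55, limma adjusted p = 0.72 and 0.24). *Lin28a* was 2.33 ± 0.38 above 0 h at 48 h (limma adjusted p = 3.0e-06). At 0 h the replicate sets differed, with means of 3283 in replicates 1 and 2 and 794 in replicates 3 and 4. The log2 ratio of *Lin28b* to *Lin28a* differed from 0 h by −1.47 at 16 h, −2.04 a day after induction and −4 after 48 h, with all 4 samples lower each time. The sets differed in size. At 16 h the difference was −0.41 in replicates 1 and 2 and −2.53 in replicates 3 and 4, at 24 h it was −1.15 and −2.92, and at 48 h it was −3.30 and −4.69.

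Of 14 listed genes of the LIN28 and let-7 pathway, 12 were in the table under the symbol used, and all 12 were tested. At 8 h 8 were higher and 2 lower than at 0 h (26.3% and 22.8% of all tested genes), with a median change of 0.33. At 48 h 7 were higher and 3 lower (36.1% and 37.3%), with a median of 0.46. *Hmga2*, a well-known let-7 target, rose most, from a mean of 307 at 0 h to 1695 at 8 h, and was back at 331 at 96 h. *Hmga2* and *Lin28a* were the members of this list with a change of at least 4-fold.

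The other members also had relatives with patterns of their own. *Pou3f2* (BRN2) rose from a mean of 10.8 at 0 h to 132 at 4 h (limma log2 fold change 3.75 ± 0.51, adjusted p = 6.7e-07) and was at a mean of 0.502 at 96 h. The log2 ratio of *Pou3f1* to *Pou3f2* differed from 0 h by −2.7 at 4 h, with all 4 samples below. At 96 h the ratio was 3.38 above 0 h, with all 4 samples above, but *Pou3f2* had counts of at most 1.06 there. *Foxd1* fell from a mean of 125 at 0 h to 33.8 at 2 h, when *Foxd3* was at its highest, and the log2 ratio of *Foxd3* to *Foxd1* was 2.26 higher at 2 h and 2.42 higher at 4 h, in all 4 samples each. *Otx1* stayed at means of 4.03 to 13.9, and the log2 ratio of *Otx2* to *Otx1* was 1.87 higher at 16 h, with 1.89 and 1.86 in the replicate sets. All these ratio differences were at the smallest p of the exact permutation test (adjusted p = 0.065).
Of 13 listed relatives, 7 were tested. At 2 h 2 were higher and 2 lower than at 0 h, beside 22.2% and 22.6% of all tested genes. At 96 h 1 was higher and 4 lower, beside 38.0% and 38.5%.

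The 7 genes were set beside 15 other genes of the formative and primed epiblast, of which 14 were tested, *Lin28a* among them. At 16 h 8 of the 14 were higher and 3 lower than at 0 h at FDR < 0.1, beside 28.0% and 25.3% of all tested genes. Of the 14, 6 were at least 4-fold higher. Their median change was 1.44 at 16 h, but 0.12 by 48 h and 0.083 by 96 h. The largest changes were in *Nodal*, *Dnmt3a*, *Dnmt3l* and *Lef1*. *Dnmt3a*, a de novo DNA methyltransferase, went from a mean of 226 at 0 h to 6484 at 24 h and 637 at 96 h, and *Dnmt3l*, its cofactor, from 684 to 11032 at 16 h and 4372 at 96 h. *Nodal*, the growth factor of the epiblast, fell from 548 at 0 h to 83.5 at 24 h and 10.5 at 96 h.

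*Fgf5*, a defining marker of the postimplantation epiblast, had at most 4 reads in any sample and was not tested. The summed count of the 15 genes was 3921 to 9474 at 0 h, 31175 to 35094 at 16 h and 14483 to 14778 at 96 h, whereas that of the 7 members was 438 to 530, 292 to 449 and 124 to 174. At 16 h most of the sum of the 15 came from *Dnmt3l* (mean 11032), *Lin28a* (7307), *Dnmt3b* (6401) and *Dnmt3a* (4776), while 3 of the 14 tested genes were lower than at 0 h. At 0 h the replicate sets differed in this list, as for *Dnmt3l* with means of 1231 in replicates 1 and 2 and 138 in replicates 3 and 4.

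**Figure D4:**
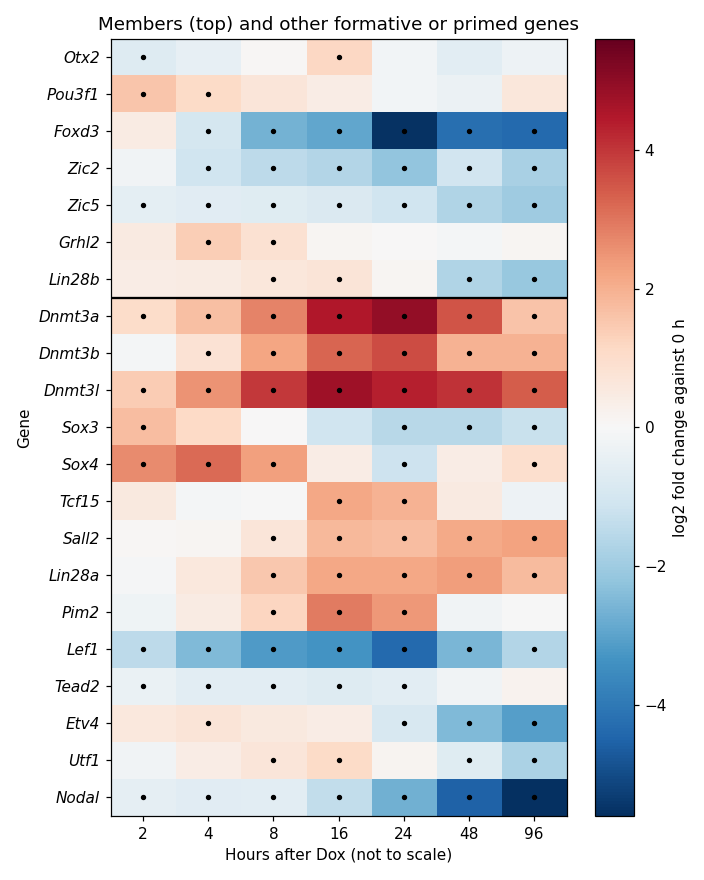
Log2 fold change against 0 h (color) of the 7 members, above the line, and the 14 other tested genes of the formative or primed epiblast (rows) at each later time point (columns), with a dot where the change passed FDR < 0.1 by limma. *Dnmt3a* and *Dnmt3l* are the deepest red in the lower block, and among the members *Foxd3* has the deepest blue, −5.55 at 24 h.

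Other cell types use some of the 7 genes, and their markers were measured too. Of 11 neural markers 3 were tested, of which *Sox1* fell and *Nes* rose. *Tubb3* fell and came back, with 281 to 458 at 0 h, 6.60 to 19.4 at 48 h and 204 to 264 at 96 h. *Neurog2* and *Hes5* had at most 0.822 and 0.587 as a mean at any time point. The summed neural count was 385 to 566 at 0 h, 160 to 234 at 48 h and 579 to 662 at 96 h. Of 8 markers of mesoderm and the streak 2 were tested, and *Evx1* fell to listed means of 0 at 48 h and 0.263 at 96 h. The summed count of these 8 was 224 to 391 at 0 h and 88.9 to 132 at 96 h. Most of it was *Eomes*, with 180 to 349 at 0 h and 83.2 to 124 at 96 h. Of 7 trophoblast markers 6 were tested, with *Hand1*, *Gata3*, *Krt7* and *Tfap2c* changing most. At 48 h 3 were higher and 2 lower than at 0 h, beside 36.1% and 37.3% of all tested genes. The summed trophoblast count was 674 to 755 at 0 h, 162 to 198 at 16 h and 441 to 722 at 48 h. *Eomes*, with 101 to 121 at 16 h, is counted in this list and in that of the anterior visceral endoderm too, so these sums are not independent. Their part in the results was not tested.

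The genes with time courses most like those of the members were found for the 3 members whose time point means spanned at least 4-fold. Pearson correlations of mean log2(normalized count + 1) over the 8 time points were computed with 2362 genes that spanned as much and reached a mean of 100. They are a description over time points that share libraries. *Foxd3* was most like *Ntn1* (r = 0.99), *Mt1* (0.98) and *Psme2* (0.97). For *Zic2* the nearest were *Tdh* (0.96), *Jak3* (0.96) and *Vax2* (0.96), and for *Lin28b* they were *Abcc4* (0.99), *Itga6* (0.99) and *Nfatc2ip* (0.99). Among the members themselves, the correlation over the time points was highest between *Foxd3* and *Zic2* (0.88) and between *Zic5* and *Lin28b* (0.81), and 0.62 between the neighbours *Zic2* and *Zic5*.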

How the data were processed

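RNA-seq of 32 samples (8 time points, 4 replicates each) was deposited by the authors as variance-stabilized log2 values from DESeq2. Per the labels and methods, poly(A) libraries were made with a stranded kit, reads were trimmed with cutadapt 2.7, aligned to GRCm38.p6 with HISAT2 2.1.0 and counted per gene with featureCounts (Subread 1.6.4). The setting for strand is not given in the sources used here, so reads of an overlapping antisense gene may be included. Inverting the transformation gave normalized counts, and 100% of values became whole reads (tolerance 0.01).

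The filter kept 15227 genes that reached a normalized count of 10 in 4 or more samples. Their log2(normalized count + 1) values entered limma 3.58.1 (R 4.3.3; lmFit, contrasts, eBayes with trend), all 32 samples together. A call is FDR < 0.1, with or without a log2 fold change of at least 2 (4-fold), and results say which. Depth was 3190108 to 12301732 reads on genes. Ratios used exact permutation tests (scipy 1.17.1). The limma procedure was tested on simulated data with known changes.

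Titles gave the replicate numbers. Samples of 1 number deviated from their time point means with a mean correlation of 0.196, the same as other numbers of the same set (0.196; other set −0.196), so the numbers do not pair samples. One related gene is not reported here. The members and gene lists were chosen with earlier results of these data known. By rule, the text names all members, up to 4 genes of a list with the largest changes past the 4-fold call, defining markers, and the 3 genes most like a member. Alternatives covered the pseudocount, filter, scaling, tool, thresholds, samples in the fit, replicate block, replicate sets and leaving out each sample.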

Additional observations from a re-analysis of the deposited data

Results flagged for a closer look

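Of 56 groups of 4 samples (7 genes at 8 time points), 2 held a sample far from the others by Dixon's test, both in *Grhl2*, and chance gives about 1 such group in 20. At 0 h the highest *Grhl2* sample, replicate 1, had a normalized count of 24.8, beside 11.3, 12.1 and 12.9 in the others. At 48 h the highest *Grhl2* sample, replicate 2, had 22.6, beside 10.4, 11.4 and 12.3.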

How the results depend on the processing

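The 67 member changes past FDR < 0.1 kept their direction in 1373 of 1373 values under the alternatives and missed the threshold in 81. The cause was not tested for the values below. A pseudocount of 5 left 0 pairs at least 4-fold lower than at the preceding time point. A mean of at least 50 keeps *Zic2*, *Zic5* and *Lin28b* alone and by construction lowers the counts, to 2 higher at the FDR and 2 lower by 4-fold against 0 h, to 1, 0 and 6 (higher at the FDR, lower by 4-fold, lower at the FDR) against the preceding time point, and to 0, 2 and 11 against 2 h. Averaging the replicates within sets left 4 higher against 0 h, 3 higher and 7 lower against the preceding time point and 1 higher against 2 h, all at the FDR. The set as a block gave 11 higher against 0 h. Replicates 1 and 2 alone gave 1 pair (*Otx2*) at least 4-fold higher than at 2 h and 5 higher at the FDR. A log2 fold change of at least 1 gave 4 higher and 16 lower against 0 h, 4 and 5 against the preceding time point and 1 and 17 against 2 h. Leaving out single samples gave 6 to 8 4-fold falls against 0 h and 6 to 8 against 2 h, 1 against the preceding time point, and 0 to 1 4-fold rises against 2 h (1 without replicate 3 of 2 h).

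When the fit held a block for the replicate number, although the numbers do not pair the samples, 10 pairs were higher and 23 lower against 0 h at the FDR, 7 and 14 against the preceding time point and 3 and 23 against 2 h, and 0, 0 and 0 4-fold rises stood beside 7, 1 and 7 falls.

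Signs turned in changes against 0 h that passed no threshold. Replicates 3 and 4 alone gave −0.38 for *Otx2* at 8 h, 0.093 for *Zic2* at 2 h and 0.013 for *Grhl2* at 48 h, and replicates 1 and 2 alone gave 0.45 for *Otx2* and 0.34 for *Pou3f1* at 24 h, and −0.22 and −0.54 for *Grhl2* at 24 and 96 h. Leaving out single samples gave −0.10 to 0.31 for *Otx2* at 8 h and −0.36 to 0.086 at 24 h, −0.34 to 0.19 for *Pou3f1* at 24 h and −0.034 to 0.26 for *Lin28b* at 24 h. For *Grhl2* it gave −0.092 to 0.35 at 16 h, −0.094 to 0.26 at 24 h, −0.33 to 0.15 at 48 h and −0.024 to 0.34 at 96 h. TMM scaling changed no call.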

Other observations

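Beyond the time points at which a test was passed, *Otx2* lay below all 4 samples of 0 h in each sample of 48 h (22.6, 15.1, 13.2 and 16.5), with a log2 fold change of −0.61 and a limma adjusted p of 0.10. *Pou3f1* at 96 h had 13.8, 12.6, 22.6 and 19.9, with replicates 3 and 4 above all samples of 0 h.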
